A study of Mus musculus with 4 samples.

Results

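The TRIM family, here 70 of the 56350 genes in the counts table, was taken by gene symbol: every symbol that begins with Trim and a digit, plus Pml, with Mid1 left out. Most members of this family carry a tripartite motif of a RING finger, B-boxes and a coiled coil. Most are E3 ubiquitin ligases, enzymes that attach ubiquitin to chosen proteins. Many act in innate immunity, where they modify the sensors of viral RNA and DNA or bind viral capsids, and interferon raises the expression of several of them. A separate branch, the TIF1 (transcription intermediary factor) proteins, works in the nucleus as corepressors that read histone marks. Trim28 of that branch joins the large class of KRAB zinc finger proteins to the enzymes that build silent chromatin on retroviral elements. The family and its division into immune-sensing members and repressors were proposed with the fold changes between these groups already known. The values of this comparison are therefore given as a description, and its calls support nothing about the family as a whole.

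RNA came from EO771 cells, a mammary carcinoma line of C57BL/6 mice, grown in DMEM with serum. Of the 4 libraries, 2 are labelled BML-210, an inhibitor of histone deacetylases given at 1.0 µM for 48 h. The other 2 are titled WT and give their treatment as untreated, while the protocol speaks of a vehicle control. Nothing in the labels says that the 2 libraries of a group came from separate cultures, so the spread between them may be technical. Every direction below rests on these labels. The codes beside them are V for the libraries labelled BML-210 and D for those labelled untreated. These letters could stand for vehicle and drug, in which case the groups would be exchanged and every sign below turned round. The labels were followed, and whether they are exchanged was not settled by the files. Of 4 genes that such inhibitors often raise, H1f0 (log2 fold change 0.67) was called higher in the libraries labelled BML-210. Cdkn1a (-0.32), Clu (-0.47) and Sat1 (-0.84) were called lower there. Of all tested genes 22.9% were called higher and 23.5% lower. These 4 genes were listed with earlier results of these data known, and nothing about an exchange is read from them.

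Total counts ran from 13167893 to 16534667 per library. The 6 epithelial markers summed to 29.8 and 34.2 CPM in the libraries labelled BML-210, against 45.5 and 50.7 CPM in those labelled untreated (CPM are counts per 1000000 of the library total, with TMM factors). Nearly all of that sum was keratin 8 (Krt8), while Krt18 had 0 counts in both libraries labelled BML-210 and 1 and 2 counts in those labelled untreated, and Epcam had 1 to 3 counts per library. The 10 leukocyte markers together summed to 4.16 and 5.57 CPM in the libraries labelled BML-210, against 8.40 and 6.63 CPM in those labelled untreated. Among them 3 had enough counts to be tested, with 0 higher and 1 lower. Of all tested genes 22.9% were called higher and 23.5% lower. The gene called lower was the macrophage marker Adgre1, named after its values were seen. Adgre1 had 1 and 4 counts in the libraries labelled BML-210, against 33 and 13 in those labelled untreated. Ptprc (log2 fold change 0.02) and Lyz2 (-0.40), the other tested markers, were not called. The 6 endothelial and fibroblast markers summed to 103 and 108 CPM against 163 and 163 CPM, nearly all from Pdgfra, with Lum at 0 in every library. The part of other cells in the results on TRIM genes was not tested. In bulk RNA, fewer cells of a type and less RNA per cell cannot be told apart.

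Of the 70 members, 40 had enough counts to be tested. By edgeR's quasi-likelihood test, with a Benjamini-Hochberg adjusted p below 0.05 over all 14455 tested genes, 14 of these 40 were called higher and 9 lower in the libraries labelled BML-210. The same test called 46.4% of all tested genes, 22.9% higher and 23.5% lower. Nothing is read from these shares, since this contrast was in view when the family was chosen. At 2-fold or more, 2 members were called higher (Trim65 and Trim34a) and 4 lower (Trim36, Trim7, Trim12c and Trim29), where 2.35% of all tested genes were called higher and 4.33% lower by that much. DESeq2 called 13 of these 23 members. The median log2 fold change of the 40 was 0.04, against -0.002 over all tested genes. For 17 of the 40, both libraries labelled BML-210 lay above both labelled untreated, and for 14 both lay below. Of all tested genes, 35.2% and 36.1% did so, 71.3% together. A member with few counts passes the filter on low counts most easily through the group where it is high, so the 40 do not stand for all members. The extremes were nearly equal in size: Trim65 at 1.94 ± 0.14 and Trim36 at -1.94 ± 0.22 on the log2 scale (SE). Of the 40, 16 had a log2 fold change smaller than 0.25 in size.

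**Figure D1:**
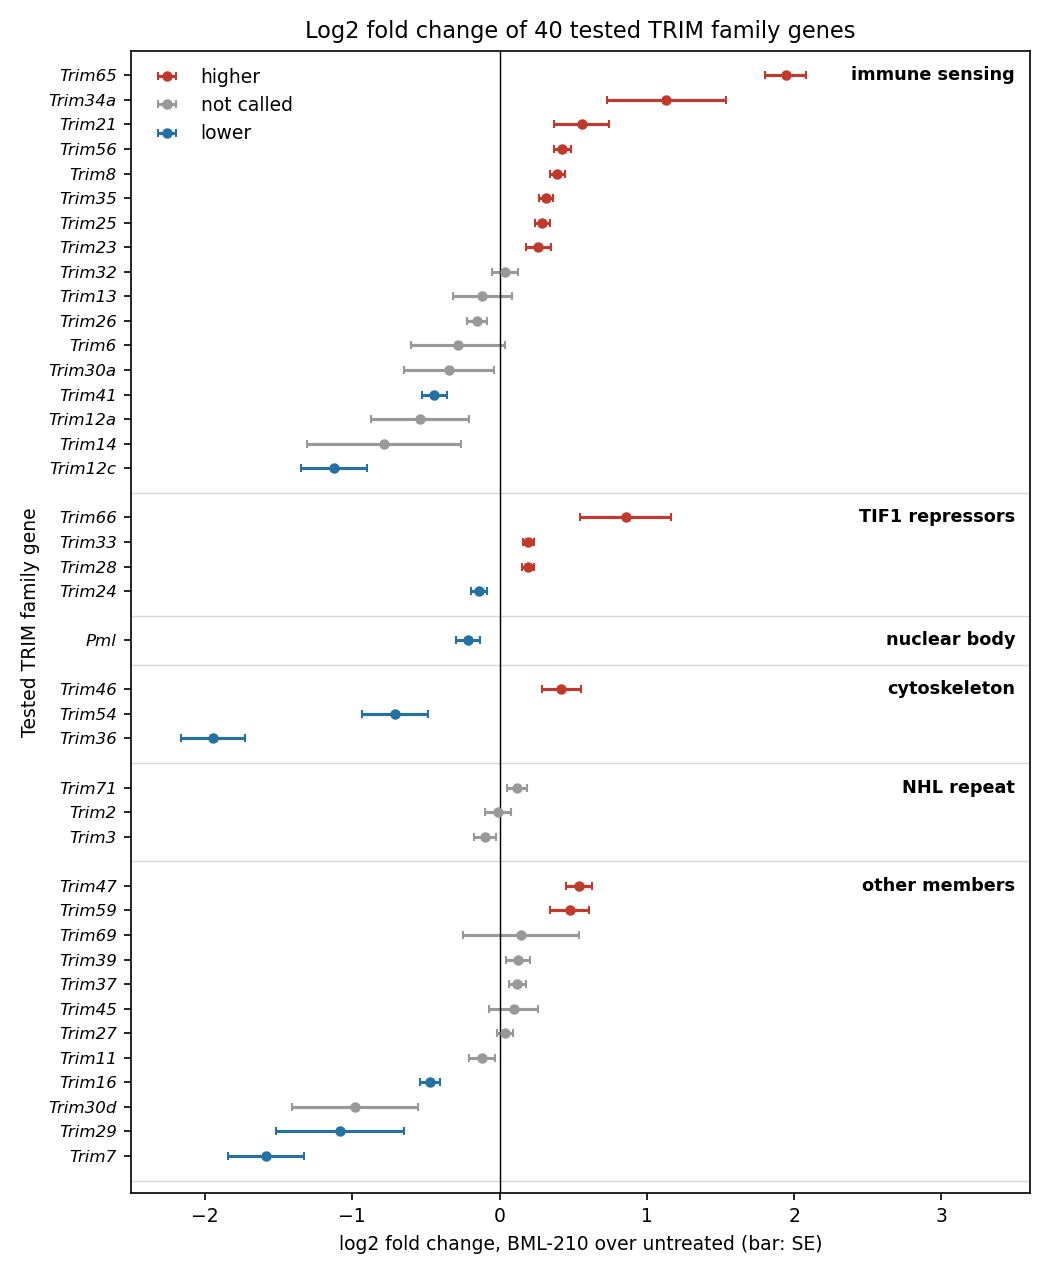
Log2 fold change, BML-210-labelled over untreated-labelled libraries (x axis, bars are SE) for the 40 tested TRIM family genes (y axis), grouped by role and coloured by their call. Trim65 at 1.94 and Trim36 at -1.94 mark the ends, and the 4 TIF1 repressors lie between -0.14 and 0.86.

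Among the ligases that act on sensors of foreign nucleic acid, Trim65 was the gene with the largest difference. Its product attaches ubiquitin to the RNA sensor MDA5 and so activates it. Trim65 (ENSMUSG00000054517.9, chromosome 11, 116121846 to 116131128, minus strand, mm10) had 264 and 278 counts in the libraries labelled BML-210, against 85 and 71 counts in those labelled untreated. Scaled to library size these are 20.0 and 19.8 CPM, against 5.17 and 5.17 CPM. The replicates of a group were nearly alike and the groups lay far apart, a fold change of 3.84. With any 1 library left out, the log2 fold change of Trim65 lay between 1.94 and 1.95.

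Ifih1, the gene of MDA5 itself, had 9.99 and 9.42 CPM in the libraries labelled BML-210, against 9.43 and 11.1 CPM in those labelled untreated. These groups overlapped and Ifih1 was not called, with a log2 fold change of -0.07 ± 0.15 (SE). Ifih1 and Ddx58 are named here as the targets of Trim65 and Trim25 products, a choice made after their values were seen.

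Trim25, whose product ubiquitinates the RNA sensor RIG-I, had 83.6 and 86.1 CPM in the libraries labelled BML-210, against 69.0 and 69.7 CPM in those labelled untreated. The groups did not overlap, and Trim25 was called higher with a log2 fold change of 0.29 ± 0.05 (SE). Ddx58, the gene of RIG-I, had 52.9 and 50.5 CPM against 52.5 and 50.7 CPM. It was not called, with a log2 fold change of 0.00 ± 0.06 (SE). Trim21, the receptor for antibodies that reach the cytosol, had 6.89 and 6.99 CPM in the libraries labelled BML-210, against 4.38 and 5.10 CPM in those labelled untreated. It was called higher with a log2 fold change of 0.56 ± 0.19 (SE), and the groups did not overlap. The call of Trim21 was lost when untreated replicate 1 was left out (edgeR adjusted p = 0.109) and when BML-210 replicate 2 was (edgeR adjusted p = 0.0554).

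**Figure D2:**
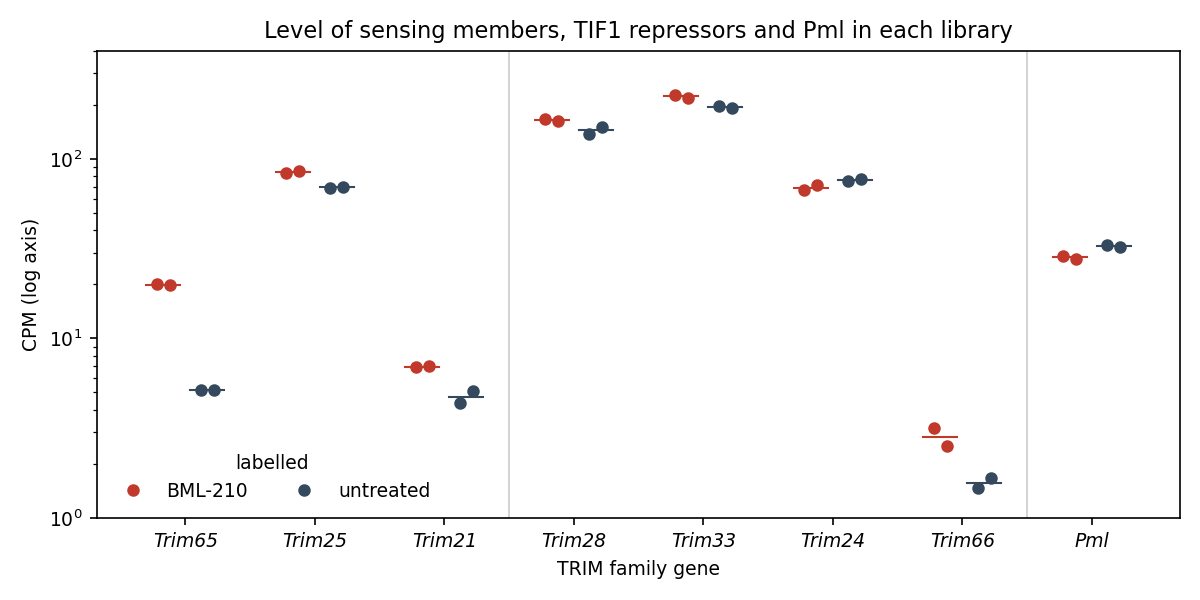
CPM on a log axis (y axis) of 3 sensing members, the 4 TIF1 repressors and Pml (x axis) in each library, with points for libraries and lines for group means. Trim65 stands at 20.0 and 19.8 CPM in the libraries labelled BML-210 against 5.17 and 5.17 CPM in those labelled untreated, while the groups of Trim28, Trim33 and Trim24 lie close together.

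Other sensing ligases differed less. Trim56, which ubiquitinates proteins of the cytosolic DNA response, had 76.0 and 82.7 CPM in the libraries labelled BML-210, against 59.9 and 58.2 CPM in those labelled untreated. Trim8, a regulator of NF-kappaB signalling, had 105 and 107 CPM against 83.3 and 78.2 CPM. Trim35 had 1721 and 1778 counts against 1660 and 1450 counts, or 129 CPM on average against 103 CPM. All of these were called higher, with log2 fold changes of 0.43 for Trim56, 0.39 for Trim8 and 0.32 for Trim35, and their groups did not overlap. Trim23, which carries a GTPase domain of the ARF type beside its ligase domain, had 35.0 and 30.7 CPM in the libraries labelled BML-210, against 29.0 and 25.4 CPM in those labelled untreated. The groups of Trim23 were separate but near each other. Its call (log2 fold change 0.26) was lost when untreated replicate 2 was left out (edgeR adjusted p = 0.153) and when BML-210 replicate 1 was (edgeR adjusted p = 0.232).

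Of the 24 sensing members on the list 17 were tested, and 8 were called higher, 2 lower and 7 neither way, with a median log2 fold change of 0.04. Of all tested genes 22.9% were called higher, 23.5% lower and 46.4% either way. That median was 0.15 without untreated replicate 1. Trim41 fell to 27.4 and 25.5 CPM in the libraries labelled BML-210, against 34.4 and 37.7 CPM in those labelled untreated. Its exons share 31 bases with Rack1 on the opposite strand, a gene with 13853 and 14930 counts in the libraries labelled BML-210 and 18953 and 15502 in those labelled untreated. The sources used here do not say whether strand was used in counting. Without it, reads of such pairs cannot be told apart in the shared bases. Trim32, which acts on the DNA response protein STING, had 27.3 and 27.7 CPM against 26.6 and 27.0 CPM and was not called. Trim26 had 39.4 and 38.0 CPM against 43.9 and 42.0 CPM and was not called, although its groups did not overlap. Trim13, an ER-anchored ligase, was not called either (-0.12 ± 0.20 on the log2 scale, SE). Trim14, an adaptor at the mitochondrial signalling protein MAVS, had 8 and 6 counts against 17 and 10 and was not called. Its exons share 31.3% of their bases with Nans on the opposite strand.

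A run of 11 members lies close together on chromosome 7 (104218793 to 104535361, mm10): Trim6, Trim34a, Trim34b, Trim5, Trim12a, Trim12c, Trim30a to Trim30d and the pseudogene Trim30e-ps1. It holds the mouse relatives of human TRIM5, a factor that blocks incoming retroviruses by binding their capsids. Levels here were low, and the tested members went both ways. Trim34a (chromosome 7, 104244457 to 104262234) had 21 and 27 counts in the libraries labelled BML-210, against 10 and 14 counts in those labelled untreated. It was called higher (log2 fold change 1.13 ± 0.40, SE), but not once untreated replicate 1 (edgeR adjusted p = 0.248) or BML-210 replicate 2 (0.154) was left out. Trim12c (chromosome 7, 104338754 to 104353362) fell to 36 and 38 counts in the libraries labelled BML-210, against 102 and 77 counts in those labelled untreated. Scaled to library size, Trim12c had 2.73 and 2.71 CPM against 6.21 and 5.61 CPM, and the groups lay well apart (log2 fold change -1.12 ± 0.22, SE). Trim12a was not called at 24 and 17 against 33 and 33 counts, and Trim6 was not called at 20 and 29 against 34 and 32 counts. Trim30a, which limits Toll-like receptor signalling, was not called at 22 and 32 counts against 47 and 29. Trim30d had 11 and 9 counts against 25 and 19 and was not called, but it was when only genes with a mean of at least 1 CPM were tested (edgeR adjusted p = 0.0489).

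The copies in this run resemble each other, which makes single counts uncertain. Of all windows of 100 bases in the transcripts of Trim34a, 21% also occur in Trim34b, a gene with 0 counts in every library. The share with any other gene was 8.05% for Trim12c, 2.87% for Trim12a, 4.41% for Trim30a and 4.57% for Trim30d. The sources used here do not state the treatment of reads that match several copies.

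Several promoters of this family hold an element of the interferon-stimulated response type (ISRE). The search was for GAAA, any 2 bases and GAAA again, on either strand, in the 300 bases from 250 before to 50 after each annotated start, from RefSeq (GRCm38.p6), where 54 of the 70 members matched by symbol. Of the 40 tested members 30 had such a promoter. None was matched for Trim65, Trim8, Trim35 or Trim14, so these sensing genes were not searched. Among promoters of tested members 9 of 43 (20.9%) held the element. The promoters of tested sensing members came from 13 genes, and 7 of 15 (46.7%) held it, against 3.44% of all 32851 promoters of that length. The holders were 8 genes: Trim21, Trim34a, Trim12a, Trim12c, Trim30a, Trim30d, Trim26 and Trim2. Trim34a, Trim12a, Trim12c, Trim30a and Trim30d belong to the run of similar copies on chromosome 7, and Trim30a held the element at more than a single start. The shares are therefore not shares of independent promoters. Of the 8 holders, 2 were called higher, 1 lower and 5 neither way. Of all tested genes 22.9% were called higher, 23.5% lower and 46.4% either way, and nothing about the element is read from these calls. The promoters of the called genes are printed because they carry the same element in genes that differed in opposite directions, with the matches in capitals, 5′ to 3′ on the strand of the gene.

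Trim21: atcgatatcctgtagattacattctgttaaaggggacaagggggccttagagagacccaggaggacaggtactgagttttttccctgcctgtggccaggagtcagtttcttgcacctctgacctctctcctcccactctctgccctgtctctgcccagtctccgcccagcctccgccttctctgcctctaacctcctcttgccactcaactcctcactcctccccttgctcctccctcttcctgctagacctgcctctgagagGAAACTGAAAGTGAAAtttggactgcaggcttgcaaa
Trim34a: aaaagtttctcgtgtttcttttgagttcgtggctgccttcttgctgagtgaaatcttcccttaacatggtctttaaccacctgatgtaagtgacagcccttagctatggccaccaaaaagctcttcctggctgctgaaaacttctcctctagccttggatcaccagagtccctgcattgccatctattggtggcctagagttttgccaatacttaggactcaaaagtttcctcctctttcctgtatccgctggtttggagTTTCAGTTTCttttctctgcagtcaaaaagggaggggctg
Trim12c: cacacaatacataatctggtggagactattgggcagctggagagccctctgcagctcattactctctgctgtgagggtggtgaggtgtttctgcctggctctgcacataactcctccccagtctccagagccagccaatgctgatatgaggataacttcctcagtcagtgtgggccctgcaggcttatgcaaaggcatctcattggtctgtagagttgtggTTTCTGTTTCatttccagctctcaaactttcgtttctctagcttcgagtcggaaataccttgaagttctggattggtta

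The Trim21 promoter (chr7:102565433-102565732, minus strand, GRCm38.p6) holds a pair of overlapping matches, GAAACTGAAA and GAAAGTGAAA, which start 13 and 19 bases after the annotated start. The Trim34a promoter (chr7:104244207-104244506, plus strand) holds TTTCAGTTTC, the element on the other strand, 10 bases after the start. In the Trim12c promoter (chr7:104353300-104353599, minus strand) TTTCTGTTTC begins at position -29 from the start, and the same 10 letters stand in the Trim12a promoter. These 2 paralogous promoters were 72.3% identical over 260 bases at their best offset. A match describes letters and is not a shown binding site. Looser kappaB-like letters (GGG, any 5 bases, then CC) were in 55.8% of the promoters of tested members and 50.8% of all promoters. STAT-like letters (TTCNNNGAA) were in 4.65% against 8.30%. The E2F-like letters TTTCGCGC and TTTGGCGC were in 0 of the 43, against 0.323% and 0.514% of all promoters.

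Of 18 genes of the interferon response 15 were tested, and 9 were higher, 1 lower and 5 not called (median log2 fold change 0.68), where 22.9% of all tested genes were called higher and 23.5% lower. With BML-210 replicate 1 left out, 7 were called higher. The list was chosen with earlier results of these data known. The regulator Irf9 had 11.1 and 13.6 CPM in the libraries labelled BML-210, against 4.08 and 4.95 CPM in those labelled untreated. Irf1 (0.68), Ifit1 (1.43) and Parp14 (0.82) rose on the log2 scale, while Rsad2 fell by 0.27 on the log2 scale. With untreated replicate 2 or either BML-210 replicate left out, 0 genes of this list were called lower.

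Of 17 tested genes of the sensing pathways that TRIM ligases modify, 5 were higher, 4 lower and 8 not called (46.4% of all tested genes were called either way), with a median log2 fold change of 0.01. Zc3hav1, an antiviral protein that binds viral RNA and for which Trim25 is a cofactor, had 410 and 405 CPM in the libraries labelled BML-210, against 301 and 288 CPM in those labelled untreated. Tab2, an adaptor of the TAK1 kinase and a target of Trim30a, rose by 0.38 and Tmem173, the gene of STING, by 0.50 on the log2 scale. Ikbkg, the regulatory subunit of the IkappaB kinase, fell by 0.34 on the log2 scale. Dhx58, a relative of RIG-I, fell by 0.77 on the log2 scale.

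In the repressor branch, Trim28, Trim33 and Trim24 differed by small amounts, and Trim66 by more at a low level. Trim28 (ENSMUSG00000005566.14, chromosome 7, 12999114 to 13031035, plus strand, mm10) had 166 and 163 CPM in the libraries labelled BML-210, against 138 and 150.05 CPM in those labelled untreated. Trim33, a regulator of SMAD signalling that reads histone acetylation, had 228 and 219 CPM against 198 and 193 CPM. Both were called higher with separate groups, at log2 fold changes of 0.19 ± 0.04 for Trim28 and 0.20 ± 0.04 for Trim33 (SE). Trim24, a coregulator of nuclear receptors and a ligase for p53, had 67.1 and 71.2 CPM in the libraries labelled BML-210, against 75.3 and 77.2 CPM in those labelled untreated. The groups of Trim24 did not overlap and it was called lower (-0.14 ± 0.05, SE). That call rested on a narrow margin: leaving out untreated replicate 1 (edgeR adjusted p = 0.0501), untreated replicate 2 (0.140) or BML-210 replicate 1 (0.276) ended it. It was also lost by edgeR with library totals only (adjusted p = 0.0613) and with no filter on low counts (0.0739). Trim66, the rarest of the branch, had 42 and 35 counts in the libraries labelled BML-210, against 24 and 23 counts in those labelled untreated. It was called higher (0.86 ± 0.31, SE), but not once untreated replicate 1 (edgeR adjusted p = 0.120) or BML-210 replicate 1 (0.176) was left out.

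Set side by side, the 3 sensing members proposed as examples were 3.84-fold (Trim65), 1.22-fold (Trim25) and 1.47-fold (Trim21) higher in the libraries labelled BML-210. The 3 proposed repressors had fold changes of 1.14 (Trim28), 1.14 (Trim33) and 0.908 (Trim24). Over the whole groups the order of the medians was the other way: 0.04 for the 17 tested sensing members and 0.20 for the 4 TIF1 genes on the log2 scale. No test of the difference between the groups was made, because their members were chosen with these values known.

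Trim28 works with the genes of heterochromatin. Of 17 tested heterochromatin genes, 13 were higher, 0 lower and 4 not called (median log2 fold change 0.33), where 22.9% of all tested genes were called higher and 23.5% lower. This list too was chosen with earlier results known. Among them Cbx5, the gene of HP1 alpha, had 455 and 465 CPM in the libraries labelled BML-210, against 330 and 323 CPM in those labelled untreated. The remodeller gene Chd3 (0.62), Uhrf1 (0.65), which guides maintenance of DNA methylation, and Pphln1 (0.55), of the HUSH silencing complex, rose on the log2 scale. Setdb1, the histone methyltransferase that Trim28 recruits, was named after its values were seen. It was called higher by a small 0.15 ± 0.06 (SE, log2 scale).

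**Figure D3:**
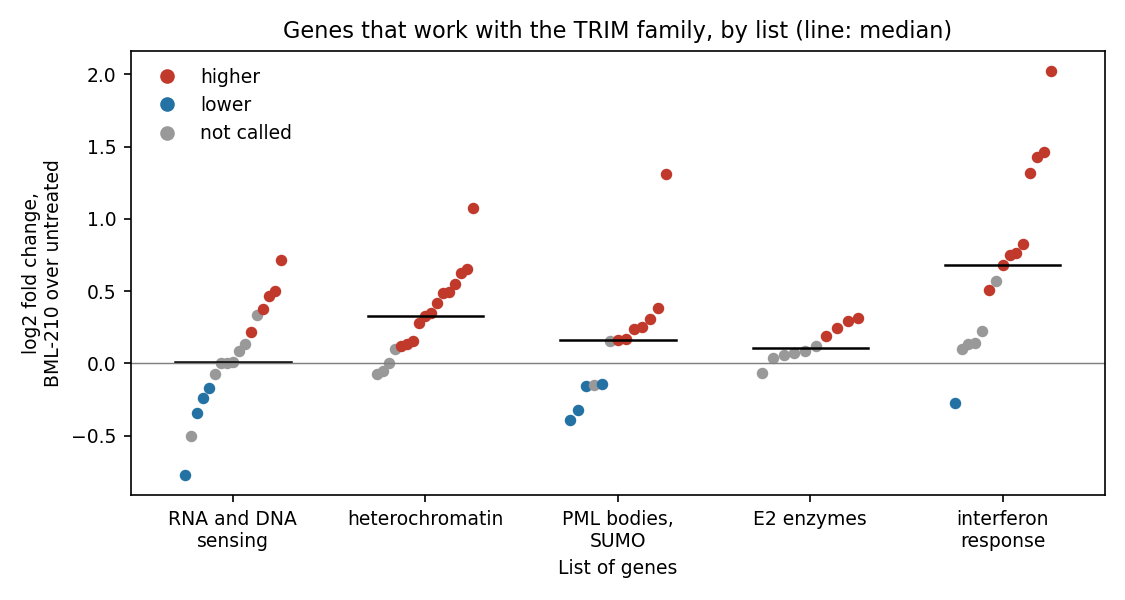
Log2 fold change, BML-210-labelled over untreated-labelled libraries (y axis) for 5 lists of genes that work with TRIM proteins (x axis), with 1 point per tested gene, coloured by call, and a line at the median. The interferon and heterochromatin lists lie mostly above 0 (medians 0.68 and 0.33), and the sensing list is centred near 0.01.

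Pml, which builds the nuclear bodies named after it, had 28.8 and 27.8 CPM in the libraries labelled BML-210, against 33.3 and 32.3 CPM in those labelled untreated. The groups did not overlap and Pml was called lower (-0.22 ± 0.08, SE, log2 scale). Leaving out untreated replicate 1 (edgeR adjusted p = 0.127), BML-210 replicate 1 (0.0524) or BML-210 replicate 2 (0.154) ended the call of Pml, as did testing with no filter on low counts (0.0559). Of 13 tested genes of the bodies and of the SUMO pathway that assembles them, 7 were higher, 4 lower and 2 not called (22.9% and 23.5% of all tested genes were called higher and lower), and 2 were lower when untreated replicate 2 was left out. Sp100, a further resident of the bodies and an interferon target, had 13.2 and 13.8 CPM in the libraries labelled BML-210, against 5.48 and 5.46 CPM in those labelled untreated. The SUMO gene Sumo3 rose by 0.38, and Rnf4, a ligase that targets SUMO-modified PML, rose by 0.25 on the log2 scale. The kinase gene Hipk2 fell by 0.39 and the histone chaperone gene Ubn1 fell by 0.32 on the log2 scale. Of 10 tested E2 enzymes, which hand ubiquitin to RING ligases, 4 were higher and 0 lower (against the same 22.9% and 23.5%), Ube2d3 by 0.24, Ube2w by 0.29, Ube2d2a by 0.19 and Ube2e3 by 0.31 on the log2 scale. When untreated replicate 1 was left out, 2 of the E2 genes were called higher.

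Of the 19 tested members outside the sensing and TIF1 groups, Pml included, 3 were higher, 6 lower and 10 not called, where 46.4% of all tested genes were called either way. Trim36, which binds microtubules (ENSMUSG00000033949.12, chromosome 18, 46165300 to 46212607, minus strand, mm10), fell to 34 and 26 counts in the libraries labelled BML-210, against 148 and 109 counts in those labelled untreated. This is 2.57 and 1.86 CPM against 9.01 and 7.94 CPM, a 3.84-fold lower level with wide separation of the groups. Trim54, a muscle RING finger gene, had 51 and 39 counts in the libraries labelled BML-210, against 81 and 82 counts in those labelled untreated. It was called lower (-0.71 ± 0.22, SE, log2 scale), but not once untreated replicate 2 (edgeR adjusted p = 0.0752) or BML-210 replicate 2 (0.144) was left out. Exons of Gm15469, with 0 and 0 counts against 1 and 1, cover 26.6% of its exonic bases on the opposite strand. Trim46, which organises microtubules at the start of the axon, went the other way with 187 and 195 counts in the libraries labelled BML-210, against 165 and 151 in those labelled untreated. It was called higher (0.42 ± 0.13, SE, log2 scale), but not without untreated replicate 1 (edgeR adjusted p = 0.0716). A share of 6.30% of the exonic bases of Trim46 lies under exons of Krtcap2 on the opposite strand.

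Trim7, whose product binds glycogenin, fell to 21 and 25 counts in the libraries labelled BML-210, against 79 and 74 counts in those labelled untreated. The groups were far apart, and Trim7 fell by 1.58 on the log2 scale. Trim16, which responds to damaged lysosomes, fell to 42.2 and 37.2 CPM in the libraries labelled BML-210, against 56.2 and 53.5 CPM in those labelled untreated (log2 fold change -0.47 ± 0.07, SE). It shares 237 exonic bases with Fbxw10 on the same strand, a gene with 26 and 24 counts against 28 and 25. Trim29, known from epithelial cells, had 12 and 7 counts against 25 and 20. It was called lower (-1.08 ± 0.44, SE, log2 scale), but not once untreated replicate 1 (edgeR adjusted p = 0.188), untreated replicate 2 (0.124) or BML-210 replicate 2 (0.320) was left out, nor with no filter on low counts (0.0742).

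Trim59, a membrane-anchored member, had 13.9 and 14.8 CPM in the libraries labelled BML-210, against 11.3 and 9.18 CPM in those labelled untreated. It was called higher (0.48 ± 0.13, SE, log2 scale), but not without untreated replicate 2 (edgeR adjusted p = 0.0614). The NHL-repeat genes Trim2, Trim3 and Trim71, of neurons and stem cells, were not called, at log2 fold changes of -0.01, -0.10 and 0.12. Trim71 was called higher without untreated replicate 2 (edgeR adjusted p = 0.0443). Also not called were Trim27 (0.04), Trim37 (0.12), Trim39 (0.13), Trim45 (0.10), Trim69 (0.15) and Trim11 (-0.12), as log2 fold changes.

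Trim47 is the neighbour of Trim65 on the same strand of chromosome 11 (116105752 to 116127210), and the exons of the pair share 225 bases. It had 32.0 and 38.5 CPM in the libraries labelled BML-210, against 23.1 and 25.7 CPM in those labelled untreated, and was called higher (0.54 ± 0.09, SE, log2 scale). The shared bases make up 3.82% of the exonic length of Trim65 and 8.23% of that of Trim47. Among the 5 nearest tested genes at lower coordinates and the 2 nearest at higher ones, all but Wbp2 were called higher. Of all tested genes 22.9% were. Genes beyond these are not reported here, the range was set after their values were seen, and nothing about the region is read from it. Unc13d, a gene of granule release, was the next largest at 41 and 42 counts in the libraries labelled BML-210, against 20 and 21 in those labelled untreated. H3f3b, a histone variant gene with similar copies elsewhere in the genome, rose by 0.81 on the log2 scale, whereas Wbp2 fell by 0.23 on the log2 scale. On the other side of Trim65, Mrpl38 rose by 0.25 and Fbf1 by 0.12 on the log2 scale.

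**Figure D4:**
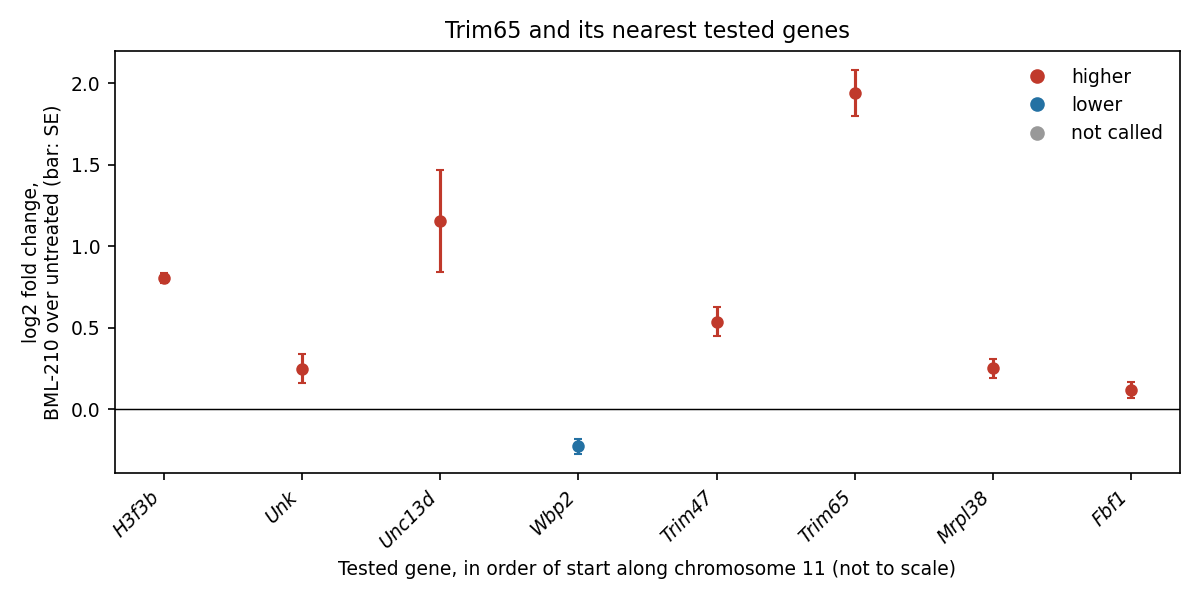
Log2 fold change, BML-210-labelled over untreated-labelled libraries (y axis, bars are SE) for Trim65, the 5 nearest tested genes at lower coordinates and the 2 nearest at higher ones, in their order on chromosome 11 (x axis, not to scale). Trim65 at 1.94 stands above all of them, next to Trim47 at 0.54, and Wbp2 at -0.23 lies below 0.

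Per kilobase of exon the members spanned a wide range of levels. RPKM, here CPM over the exonic length in kilobases, averaged 39.5 for Trim28 in the libraries labelled BML-210 and 34.6 in those labelled untreated, the highest of the 40. Next came Trim8 at 28.6 and 21.8 RPKM, Trim35 at 27.8 and 22.4 RPKM and Trim33 at 22.8 and 19.9 RPKM. Trim65 averaged 3.38 RPKM in the libraries labelled BML-210 and 0.879 RPKM in those labelled untreated, where the median of the 40 was 3.99 RPKM in the libraries labelled untreated. Levels of Trim8 and Trim35 lay so close that their order differed between the groups. The lowest tested member in the libraries labelled BML-210 was Trim14 at 0.119 RPKM, against 0.203 RPKM in those labelled untreated, where Trim66 was lowest at 0.155 RPKM.

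**Figure D5:**
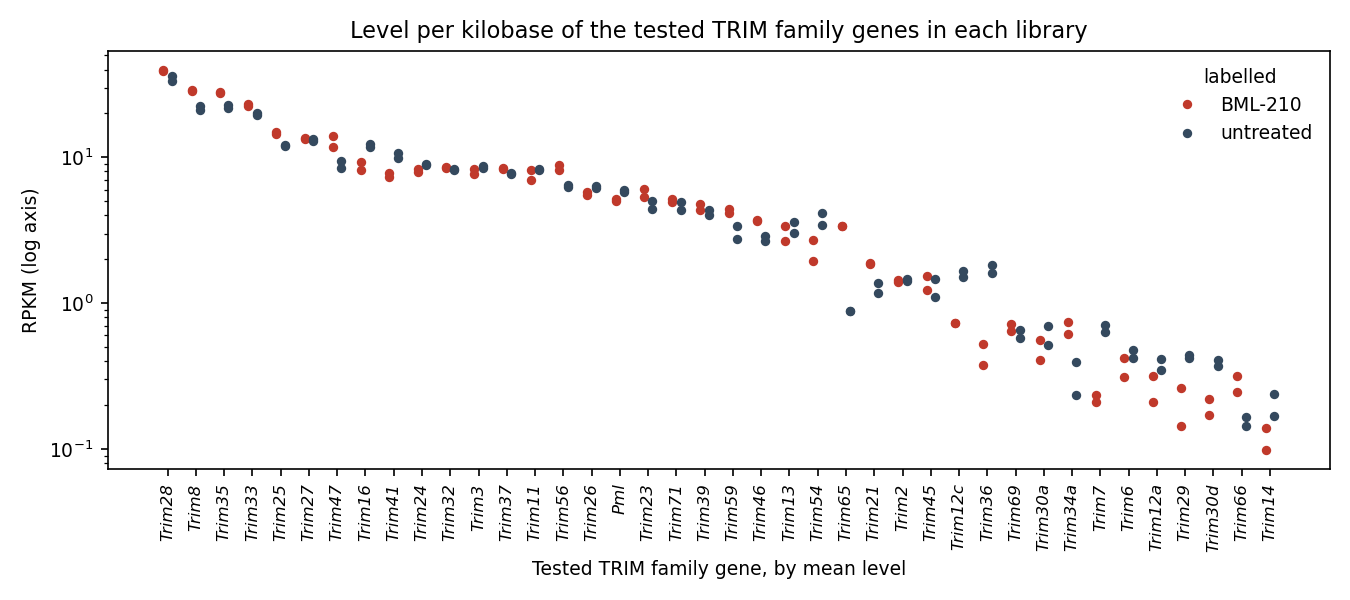
RPKM on a log axis (y axis) of the 40 tested TRIM family genes in each library, ordered by mean level (x axis), with points for libraries. Trim28 is highest at 39.5 RPKM in the libraries labelled BML-210 and 34.6 RPKM in those labelled untreated, and Trim65, Trim36 and Trim7 show the widest gaps between the groups.

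The remaining 30 members had too few counts to be tested. No count was found in any library for 8 of them, Trim10, Trim30c, Trim31, Trim34b, Trim42, Trim52, Trim58 and Trim61. A count of 0 allows a level of up to 0.183 to 0.227 CPM per library (3 counts, counting error only). A further 20 had at most 1 to 6 counts in any library: Trim5, Trim15, Trim17, Trim30b, Trim30e-ps1, Trim38, Trim40, Trim43a, Trim43b, Trim43c, Trim44, Trim50, Trim55, Trim60, Trim62, Trim63, Trim68, Trim72, Trim75 and Trim80. The other members were Trim9, with 6 and 4 counts in the libraries labelled BML-210 and 8 and 8 in those labelled untreated, and Trim67, with 6 and 10 counts against 6 and 15. These 30 include 7 of the 24 sensing members and the muscle ligase genes Trim55 and Trim63.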

How the data were processed

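Total RNA of 4 libraries was sequenced as paired ends of 100 bases on a NovaSeq 6000 after KAPA library preparation, per the labels' protocols. The authors deposited whole-number counts for each gene in 1 table, which per the file headers also lists exon positions, strand and length. The submitters' processing notes name bcl2fastq, STAR 2.5, featureCounts, Subread 1.5.1, edgeR 3.20.8 and the build mm10. Its settings for strand, multi-mapping and overlapping genes, and its annotation, are not stated in those notes. The 4 count columns were matched to samples by their library names.

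Fits used edgeR 4.0.16 under R 4.3.3. The filter filterByExpr left 14455 of 56350 genes, which were scaled by TMM and compared with glmQLFit (robust) and glmQLFTest on the group alone. That leaves 2 residual degrees of freedom. Benjamini-Hochberg adjustment ran across the whole set of tested genes, with calls below 0.05. The SE is the log2 fold change over the square root of F, an approximation. Values ± are SE of a log2 fold change. Depth was 13167893 to 16534667 counts, and intervals and floors of 3 counts cover counting error only. The members, lists and groups were chosen with earlier results of these data known.

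Counts of replicates differed beyond sampling noise (a chi-square per degree of freedom of 1.76 for the libraries labelled BML-210 and 2.70 for those labelled untreated). Each library was treated as 1 sample, but such spread does not show that the libraries came from separate cultures. The common coefficient of variation between replicates in the fit was 2.49%. If this spread is technical, the adjusted p values and calls weigh differences against technical spread only. On simulated counts for this comparison (14152 genes tested), the test found 61.5% of 96 genes with a true log2 change of 0.5. It found 88.8% of 98 genes with a change of 1. Of its 165 calls 19 were wrong, a larger share than the threshold on adjusted p is meant to allow. Few genes were changed in the simulation, whereas 46.4% of the tested genes were called in the real data. The simulated shares of genes found and of wrong calls therefore do not carry over to the real calls. Exon overlaps came from the deposited coordinates, shared windows of 100 bases from GENCODE M21 transcripts of the same build, and promoters from RefSeq. Protein features, planned in the design, were not analysed here, and some genes are not reported here. Alternatives were limma-voom (limma 3.58.1), DESeq2 1.42.0, scaling by RLE or by library totals, no filter on low counts or a minimum mean of 1 CPM, replicate number as a block, omission of each library, and omission of members with overlapping exons. Every called member is named in full, others by value or count. Of each list the up to 4 genes with the smallest adjusted p and up to 2 that went against the majority are named.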

Additional observations from a re-analysis of the deposited data

How the results depend on the processing

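Of the 23 called members, 13 passed the threshold under all 11 alternatives across genes: Trim65, Trim25, Trim56, Trim8, Trim35, Trim12c, Trim41, Trim28, Trim33, Trim36, Trim47, Trim16 and Trim7. No called member changed direction under any of them. DESeq2 called those 13 and none of the other members, 8 higher and 5 lower, with 5 sensing members higher. It called 2205 of all genes higher and 2130 lower, against 3312 and 3402 with edgeR, and the cause was not tested. DESeq2 also called 0 TIF1 genes lower, 2 sensing pathway genes lower, 2 nuclear body genes lower and 0 interferon genes lower. Without the 13 tested members that have overlapping exons, 9 members were higher and 3 lower. Of the sensing members 5 were higher and 0 lower, since fewer members remain. Of all tested genes 22.9% were called higher and 23.5% lower. Those left out included the sensing members Trim65, Trim34a and Trim35, called higher, and Trim12c and Trim41, the only sensing members called lower. Trim12c shares 100 bases with Gm27995, which had 0 counts in every library, and Trim41 shares 31 bases with Rack1. The call of Trim24 was lost with library totals only and with no filter, which left 0 TIF1 genes lower, and no filter also ended the calls of Pml and Trim29. With a mean of at least 1 CPM, the median of the sensing members was 0.14 and 1 heterochromatin gene was lower.

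With each library left out, 0 to 1 TIF1 genes, 0 to 1 heterochromatin genes, 0 to 1 interferon genes and 2 to 3 nuclear body genes were lower, 2 to 4 E2 genes were higher, and the median of the sensing members ran from 0.026 to 0.15. With a library left out, a group holds a single library, and fewer genes were called both among the members and among all tested genes. Nothing about the family is read from this.

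With the replicate number as a block, 14 members were higher and 9 lower, the same 23 genes, and 3385 and 3462 of all genes. The block also called 1 heterochromatin gene lower. Same-numbered libraries did not deviate together (correlation 0.013 over tested genes), and the labels give the numbers no meaning. Low counts limit Trim34a, Trim66, Trim29, Trim30d and Trim14.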
